A study of Mus musculus with 6 samples.

Results

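The T cell receptor alpha genes were examined by RNA-seq in CD4+ T cells taken from the spleens of mice with colitis. The members were all genes of the deposited count table whose symbol is a Trav (variable) or Traj (joining) segment, or Trac (the constant region), and whose raw counts summed to at least 20 over the 6 libraries. Of 189 such names among 54532 genes, 121 met that sum: 70 of 128 Trav, 50 of 60 Traj, and Trac. They held 98.03% of all Trav counts and 99.3% of all Traj counts, so the names left out carried little of the signal. They were thus chosen by the summed raw count over both groups, without regard to treatment. Just inside the threshold were Traj49 with 20 counts and Trav13n-1 and Trav3-4 with 23 each, and just outside were Traj48 with 19 and Trav22 with 17.

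All 6 libraries came from wild-type C57BL/6J mice given dextran sulfate sodium (DSS) in the drinking water, a polymer that injures the colonic epithelium. In 3 libraries the mice received Akkermansia muciniphila, a mucin-degrading gut bacterium, every day (Akkermansia 1 to 3), and in 3 they received phosphate-buffered saline (PBS 1 to 3). The sources used here do not give the ages of the mice, the doses or the method of isolating CD4+ T cells. All libraries were taken as 1 batch, and they held 15032257 to 16677923 counts. The descriptions name CD4 for the libraries numbered 1, CD5 for those numbered 2 and CD6 for those numbered 3, in both groups, while the cell type entry of all 6 names CD4. Transcripts of all of Cd4, Cd5 and Cd6 were present in every library, and Cd4 lay between 660 and 909 CPM (counts scaled to library size).

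During T cell development in the thymus, 1 Trav segment is joined to 1 Traj segment, and the joined exon is spliced to Trac to encode the alpha chain, which pairs with a beta chain and sits in the membrane with the CD3 chains. The Traj segments form a long row between the Trav segments and Trac. A rearrangement removes the Traj segments upstream of the one used, while those between it and Trac remain in the DNA and in the unspliced transcript. Part of the mouse Trav array is duplicated, and the copies carry a d or an n in their names. Segments with dv in the name can also rearrange in the delta chain locus that lies inside the alpha locus. In the GENCODE M21 annotation, 60 of 60 Traj genes lay in descending order of their number and Trac came last, so a low number means a position near Trac.

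The sequences of 6 Traj segments are shown because the results turn on them. Traj14 and Traj3 passed the test of level in all 15 alternative settings, Traj35 and Traj18 were among the segments that rose, Traj6 is a high-level segment with the usual joining motif, and Traj1 is the segment with the highest level per length. Capitals mark the motif that encodes the conserved phenylalanine and glycine residues of joining segments, searched on both strands as TTTGG or TTCGG, then any 4 bases, then GG. They are the GENCODE M21 transcript sequences (GRCm38), written 5′ to 3′ on the coding strand.
Traj14: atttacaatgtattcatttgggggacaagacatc
Traj3: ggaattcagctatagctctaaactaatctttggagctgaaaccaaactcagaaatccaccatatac
Traj35: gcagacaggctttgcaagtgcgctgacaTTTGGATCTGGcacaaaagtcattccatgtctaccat
Traj18: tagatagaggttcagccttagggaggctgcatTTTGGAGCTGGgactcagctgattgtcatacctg
Traj6: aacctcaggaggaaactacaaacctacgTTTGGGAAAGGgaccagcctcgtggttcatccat
Traj1: gtgtgcagatagctgctccatctttcctg

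The motif was found in 43 of all 60 Traj sequences (71.7%) on the coding strand and in 0 on the opposite strand. Among the members it was present in 37 of 45 Traj genes and in 0 of 5 Traj pseudogenes (Traj1, Traj8, Traj14, Traj36 and Traj51). Traj3 and Traj14 therefore lie outside the usual form, Traj3 as an annotated gene whose letters do not match and Traj14 as a pseudogene. Member Traj sequences were 29 to 66 bases long, with a median of 60.

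The joining segments as a class were higher in every Akkermansia library, while the variable segments overlapped between the groups and the constant region did not pass the test. Summed over the 50 members, Traj reached 205, 223 and 191 CPM in Akkermansia 1, 2 and 3, against 114, 158 and 129 CPM in PBS 1, 2 and 3. Every Akkermansia library lay above every PBS library, with means of 206 ± 15.9 and 133 ± 22.5 CPM (SD, n = 3), a ratio of 1.55 and a log2 difference of 0.64 ± 0.15 (SE). The exact two-sided permutation test gave p = 0.1, the smallest value that 3 against 3 libraries can give. In bulk RNA, a different number of cells carrying a transcript and a different amount of it per cell cannot be told apart.

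Summed Trav was 97.0, 105 and 107 CPM with Akkermansia and 119, 102 and 108 CPM with PBS. The groups overlapped, at 103 ± 5.14 and 110 ± 8.69 CPM, and the log2 difference was -0.09 ± 0.08 (SE, exact permutation p = 0.4, n = 3). Trac, the constant region that every alpha chain shares, had 9139, 8172 and 8260 counts in the Akkermansia libraries and 10326, 8990 and 9391 with PBS. Its level was 557 ± 18.3 and 597 ± 24.6 CPM, and the edgeR quasi-likelihood test over 15138 genes gave a log2 fold change of -0.10 ± 0.07 (adjusted p = 0.358).

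Counted against each other within a library, Traj reads numbered 211, 213 and 180 per 100 Trav reads with Akkermansia and 95.1, 154 and 119 with PBS, which did not overlap (exact permutation p = 0.1, adjusted over 8 such ratios 0.16, n = 3). Per 100 Trac reads there were 37.1 ± 3.31 and 22.4 ± 4.27 Traj reads, while Trav reads numbered 18.5 ± 1.49 and 18.4 ± 0.951 (SD, n = 3). The Traj difference was therefore present relative to both other parts of the alpha transcript. Scaled to the summed reads of the CD3 chains Cd3d, Cd3e, Cd3g and Cd247, Traj remained higher, with 16.9 ± 1.41 against 12.1 ± 1.64 reads per 100 and no overlap, and in edgeR 5 of 42 tested Traj segments rose on that scale, where 2.55% of all genes rose and 15.7% fell. On that scale Trav was lower, at 8.41 ± 0.463 against 9.98 ± 1.09 reads per 100, also without overlap. Trac was at -0.25 ± 0.09 (log2 ± SE, adjusted p = 0.0732, edgeR) per CD3 transcript. The median of all genes on that scale was -0.16 (log2).

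The beta chain genes gave similar values. The 14 Trbj (beta joining) members summed to 80.3 ± 6.00 CPM with Akkermansia and 52.8 ± 1.49 CPM with PBS, a ratio of 1.52 with no overlap (exact permutation p = 0.1, n = 3). In edgeR 5 of 13 tested passed as higher, where 7.32% of all genes did. The number that passed was 1 per CD3 transcript and 1 to 4 with 1 library left out. The 22 Trbv (beta variable) members summed to 217 ± 4.10 and 201 ± 18.0 CPM, and 0 of 22 passed (2 higher and 0 lower at an unadjusted p under 0.05, and 0 by DESeq2 and limma-voom). The beta constant genes Trbc1 and Trbc2 each had a log2 fold change of 0.07 (adjusted p = 0.557 and 0.596, edgeR). Traj reads per 100 Trbj reads were 259 ± 37.2 with Akkermansia and 252 ± 35.9 with PBS (SD, n = 3), so joining reads of the alpha and beta loci stood in a similar proportion in the 2 groups, with a log2 difference of 0.04 ± 0.16 (SE, exact permutation p = 0.7).

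**Figure D1:**
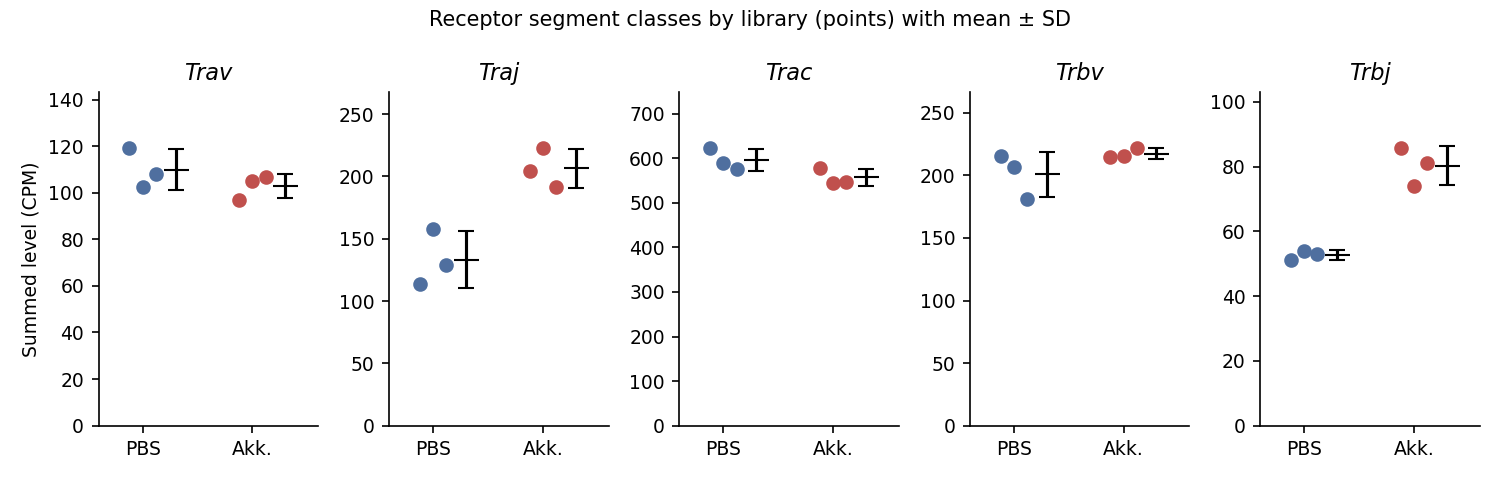
Summed level in CPM (vertical axes, from 0) of Trav, Traj, Trac, Trbv and Trbj in each library, with PBS in blue and Akkermansia (Akk.) in red, and bars for mean ± SD of 3 libraries. The 3 Akkermansia libraries lie above the 3 PBS libraries for Traj (191 to 223 against 114 to 158 CPM) and for Trbj, and the groups overlap for Trav.

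In the edgeR test on every gene, 10 of the 42 Traj segments that passed the filter on low counts rose with Akkermansia and 0 fell, where 7.32% of all 15138 genes rose and 8.28% fell. Of the 42, 39 had a log2 fold change above 0, and the median was 0.65, beside -0.01 over all genes tested. Counts of the groups did not overlap, on the CPM scale, for 23 of the 42, all of them higher, where 17.1% of all genes were higher without overlap. The 8 Traj members that the filter left out are not part of these counts, and a filter on the mean count over all libraries, blind to group, also kept 42.

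Traj3 had the smallest adjusted p. It was counted 202, 172 and 170 times in Akkermansia 1 to 3 and 110, 94 and 121 times in PBS 1 to 3, so every Akkermansia library was above every PBS library. The log2 fold change was 0.81 ± 0.16 (SE, adjusted p = 0.00477). Traj14, the pseudogene printed above, had 97, 87 and 65 counts against 24, 36 and 46, again without overlap, with a log2 fold change of 1.29 ± 0.29 (adjusted p = 0.00967). These 2 segments passed in all 15 alternative settings of the level comparison, with adjusted p up to 0.0279 for Traj3 and 0.046 for Traj14.

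Traj18, the joining segment of the invariant receptor of natural killer T (NKT) cells, had 72, 90 and 70 counts in the Akkermansia libraries and 42, 39 and 31 with PBS. The groups did not overlap, and it rose by a log2 fold change of 1.12 ± 0.25 (adjusted p = 0.0112). Traj6 had 168, 172 and 138 counts against 90, 106 and 90 (log2 fold change 0.80 ± 0.18, adjusted p = 0.00989). Both passed in 14 of the 15 alternatives, all except that without Akkermansia 2, where the adjusted p was 0.0658 for Traj18 and 0.0577 for Traj6.

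Traj2, the annotated gene (not pseudogene) nearest to Trac, had 232, 226 and 203 counts in the Akkermansia libraries and 152, 134 and 166 with PBS. It rose by 0.62 ± 0.14 (log2, adjusted p = 0.0109), a change without overlap that missed the threshold without Akkermansia 2 (0.0585) and per CD3 transcript (0.051). The pseudogene Traj8 had 131, 120 and 113 counts against 54, 88 and 73 (log2 fold change 0.82 ± 0.22, adjusted p = 0.0253). Traj35, the most distant from Trac of the segments that passed, had 30, 36 and 32 counts against 16, 11 and 16 (1.25 ± 0.36, adjusted p = 0.0313).

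The other 3 that passed were Traj15, Traj19 and Traj7. Traj15 had 103, 127 and 101 counts in the Akkermansia libraries and 60, 85 and 60 with PBS (log2 fold change 0.75 ± 0.23, adjusted p = 0.0416). Traj19 had 63, 38 and 66 counts against 24, 28 and 35 (1.00 ± 0.31, adjusted p = 0.043). Traj7 had 194, 225 and 213 counts against 95, 179 and 116 (0.75 ± 0.23, adjusted p = 0.0479), and PBS 2 was its highest control, as it was for summed Traj. The number of Traj segments that passed depended on single libraries: it was 5 without Akkermansia 1, 3 without Akkermansia 2, 6 without Akkermansia 3 and 5 without PBS 1, against 12 without PBS 2 and 9 without PBS 3. Traj8, Traj35, Traj15, Traj19 and Traj7 each missed the threshold without any 1 of 4 or 5 different libraries, and remained above 0 each time. The number of all genes that rose, 1108 with every library, was 647, 519 and 535 without Akkermansia 1, 2 and 3 and 679, 1147 and 1287 without PBS 1, 2 and 3.

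Several segments with high levels did not pass. Traj1 had 266, 237 and 226 counts in the Akkermansia libraries and 200, 201 and 171 with PBS, which did not overlap, with a log2 fold change of 0.41 ± 0.14 (adjusted p = 0.0595). Traj4 had 184, 136 and 150 counts against 109, 144 and 135, with overlap (0.34 ± 0.18, adjusted p = 0.236). Traj11 had a log2 fold change of 0.71 ± 0.26 (adjusted p = 0.0913). Of the 15 alternatives, Traj1 passed in 4, Traj11 in 3 and Traj4 in 0. The lowest value of the 42 was that of Traj38, at -0.15 ± 0.49 (adjusted p = 0.88), from 14, 11 and 11 counts against 23, 8 and 11.

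Along the Traj row, the level per length climbed towards Trac. On the FPKM scale (the deposited values per gene length), mean levels over the 6 libraries were 478 for Traj1, 186 for Traj7, 180 for Traj2, 168 for Traj8 and 145 for Traj4, against 4.71 for Traj52 and 3.52 for Traj49. Trac itself stood at 596 ± 18.3 FPKM with Akkermansia and 634 ± 24.5 with PBS. Spearman's rho between segment number and mean FPKM was -0.97 across 50 segments, which share libraries and neighbours and are not independent replicates. The sources used here do not say how reads that overlap only part of such a segment were counted, which bears on FPKM values of such short genes. Of the Traj segments named here, Traj1 (29 bases) and Traj8 (37 bases) are the shortest, which raises their FPKM relative to their counts. Summed counts were 1301 for Traj1 and 579 for Traj8, beside 1113 for Traj2, 1022 for Traj7 and 54278 for Trac.

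The ratio of the groups varied much less along the row than the level did. The 9 members numbered 1 to 10 summed to 98.7 ± 3.13 CPM with Akkermansia and 64.5 ± 8.12 CPM with PBS (log2 difference 0.62), and 5 of them rose. The 10 numbered 11 to 20 summed to 53.6 ± 3.57 and 31.6 ± 6.86 CPM (0.78), and 4 rose. For the 10 numbered 21 to 30 the sums were 29.6 ± 5.74 and 20.5 ± 4.67 CPM (0.54), the groups overlapped and 0 passed. The 10 numbered 31 to 40 summed to 17.4 ± 2.62 and 12.01 ± 2.65 CPM (0.55) without overlap, with Traj35 as the 1 that rose. The 11 numbered 41 to 52 held 7.02 ± 1.90 and 4.70 ± 0.898 CPM (0.56) with overlap, and of the 3 tested 0 passed. Spearman's rho between segment number and log2 fold change was -0.19 across the 42 tested segments.

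The Traj pseudogenes, so annotated in GENCODE M21 and without the joining motif, differed by as much as the other Traj members. The 5 pseudogenes summed to 31.1 ± 3.13 CPM with Akkermansia and 19.7 ± 2.15 with PBS, a log2 difference of 0.66, and the other 45 summed to 175 ± 14.4 and 114 ± 20.4 CPM, a log2 difference of 0.64. Pseudogenes made up 15.1 ± 1.27% and 14.9 ± 0.995% of Traj counts (SD, n = 3).

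**Figure D2:**
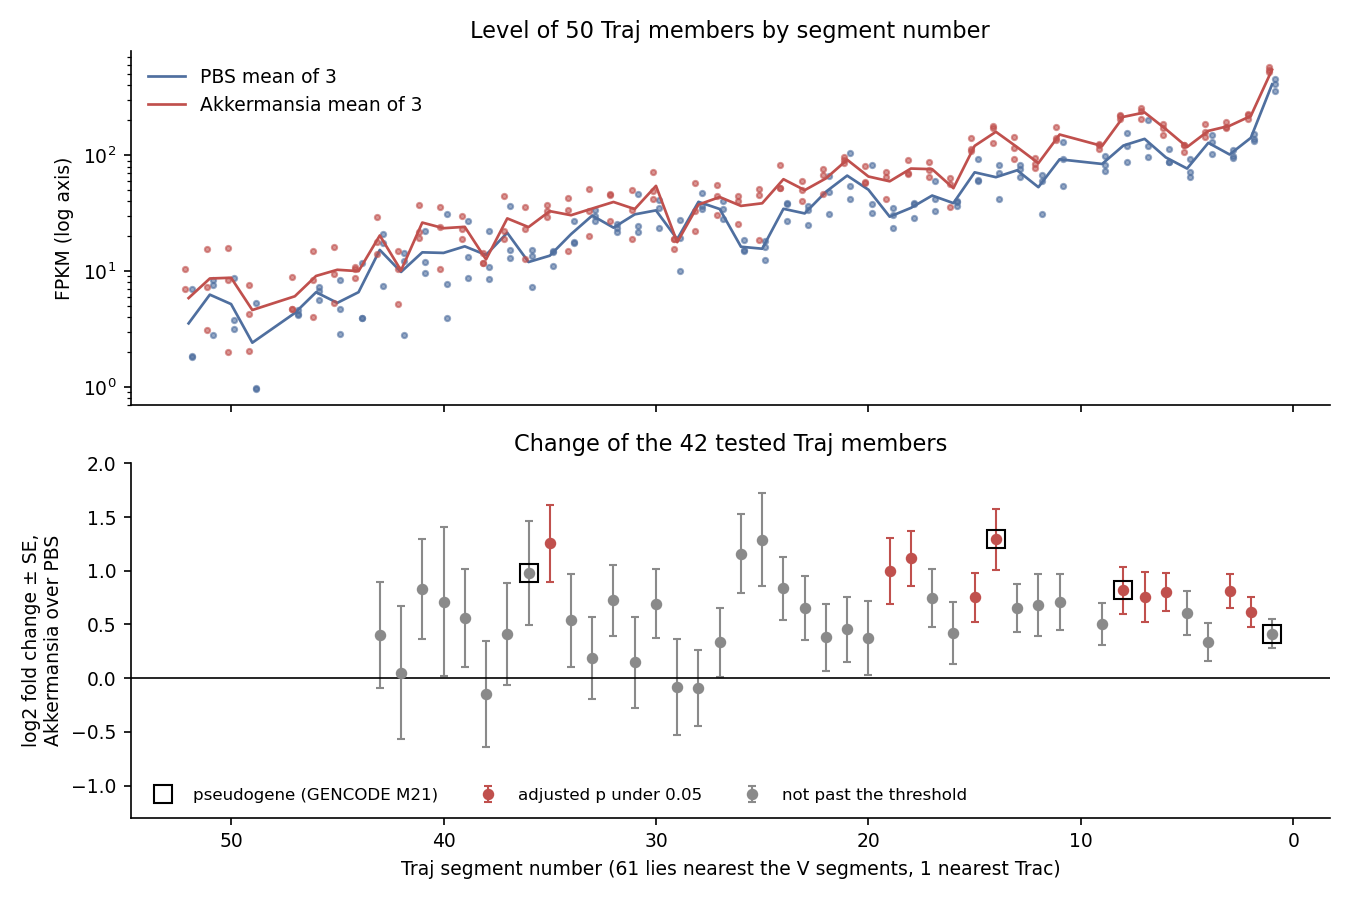
Upper panel, FPKM (log axis) of the 50 Traj members by segment number, with 1 point per library and lines for the mean of 3 libraries; libraries listed at 0 are not drawn. Lower panel, edgeR log2 fold change ± SE of the 42 tested segments, red where the adjusted p is under 0.05, with squares around pseudogenes. The level climbs towards segment 1, at 478 FPKM, and 39 of the 42 fold changes lie above 0.

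Usage here means the share of each segment in the counts of its class. Counts do not tell a joined Traj segment from one read in unspliced transcript, so Traj shares are not shares of rearrangements. No summary measure of usage passed its exact permutation test, which with 3 against 3 libraries cannot go below p = 0.10. The effective number of Traj segments is the number of segments with equal shares that would give the same Shannon diversity. It was 33.0 ± 1.59 with Akkermansia and 32.7 ± 0.662 with PBS (exact permutation p = 0.8, n = 3). For Trav it was 47.8 ± 1.06 and 47.1 ± 3.17 (p = 1 by the same exact test). Segments numbered above 30 took 11.8 ± 1.23% and 12.5 ± 1.04% of Traj counts (exact permutation p = 0.4, n = 3). Over 8 such usage measures, the smallest adjusted p was 0.533, which does not show that usage was equal.

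Usage was also compared library by library, as the percent of counts that would have to move to another segment for 2 profiles to match. For Traj this was 9.51 to 11.01% among Akkermansia libraries, 10.4 to 14.4% among PBS libraries and 9.08 to 13.1% between the groups. For Trav it was 14.5 to 15.9%, 17.6 to 20.1% and 13.8 to 20.1%. The most distant pair across the groups was thus no farther apart than the most distant pair within the PBS group. Across segments, mean shares in the 2 groups had a Pearson correlation of 0.98 for 50 Traj and 0.95 for 70 Trav, given as a description, since all segments of a library share its depth.

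When each library was scaled to its own summed Traj count, 0 of the 42 Traj segments passed in edgeR, with 1 higher and 1 lower at an unadjusted p under 0.05, where 0.654% of all genes rose and 64.6% fell on that scale. The median of all genes on that scale was -0.66 (log2). Under it Traj14 was at 0.66 (log2, adjusted p = 0.0714) and Traj28 at -0.74 (adjusted p = 0.0703). Traj14 took 2.62 ± 0.375% of Traj counts in the Akkermansia libraries and 1.66 ± 0.479% with PBS. Traj35 was the other tested segment with a share higher in every Akkermansia library, at 1.04 ± 0.0961% against 0.691 ± 0.207%. Shares of Traj28 (1.16 ± 0.485% against 1.95 ± 0.181%) and Traj4 (4.98 ± 0.83% against 6.08 ± 0.33%) were lower without overlap. Of the 42 tested segments, 2 thus had higher and 2 had lower shares without overlap. No matching value over all genes was computed, so these segments are given as description only. The Traj segments numbered 11 to 20 together took 26.0 ± 0.406% against 23.6 ± 2.05%, the only one of the 5 stretches whose shares did not overlap. The exact permutation test of that share gave p = 0.1, adjusted over the 5 stretches 0.5 (n = 3).

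**Figure D3:**
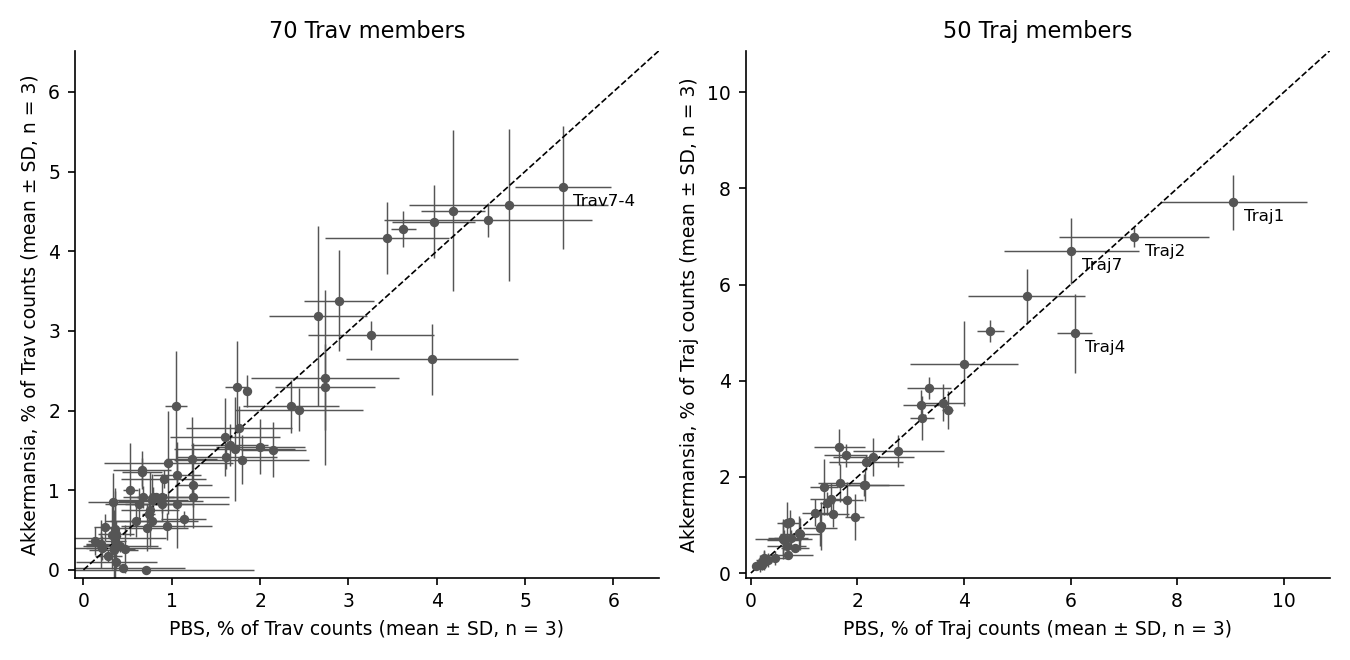
Share of each segment in the counts of its class, as mean ± SD of 3 libraries, with PBS on the horizontal axis and Akkermansia on the vertical axis, for 70 Trav (left) and 50 Traj (right) members; the dashed line marks equal shares. The points follow that line, with a Pearson correlation of 0.95 for Trav and 0.98 for Traj.

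No variable segment passed the test. Of the 51 Trav members tested by edgeR, 0 rose and 0 fell, with 1 higher and 1 lower at an unadjusted p under 0.05, and DESeq2 and limma-voom also called 0. Their median log2 fold change was -0.10, with 22 above 0 and 29 below. On the CPM scale 3 were higher without overlap (Trav7d-4, Trav6d-5 and Trav10n) and 4 lower (Trav9d-1, Trav8d-2, Trav8-1 and Trav5-4), where 17.1% and 17.8% of all genes were. With each library scaled to its own summed Trav count, which makes the comparison one of usage, 0 passed as well, where 8.38% of all genes rose and 4.43% fell. Shares of 5 of the 51 were higher and that of 1 was lower without overlap, with no matching value over all genes.

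The 8 Trav segments with the highest mean FPKM were Trav7-4 (12.1), Trav3-3 (11.9), Trav9-1 (11.5), Trav14n-3 (11.1), Trav14-1 (11.1), Trav5-4 (10.2), Trav14d-3-dv8 (9.18) and Trav14-3 (8.57). Trav7-4 had 81, 82 and 63 counts in the Akkermansia libraries and 119, 83 and 87 with PBS, a log2 fold change of -0.28 (adjusted p = 0.413). Trav3-3 had 81, 55 and 80 counts against 91, 94 and 67, and Trav9-1 had 80, 78 and 54 against 80, 61 and 81, both with overlap. Trav5-4 was the only one of the 8 whose groups did not overlap, with 34, 41 and 50 counts against 58, 76 and 71, and a log2 fold change of -0.65 ± 0.27 that did not pass (adjusted p = 0.122).

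The extremes among tested Trav segments rested on few counts. Trav7d-3 had the highest log2 fold change, 1.22 ± 0.65 (adjusted p = 0.235), from 9, 20 and 11 counts against 6, 1 and 11. Trav4-2 had the lowest, -0.91 ± 0.55 (adjusted p = 0.296), from 7, 7 and 12 counts against 30, 8 and 14, where PBS 1 stood above the rest.

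Some Trav segments were found almost wholly in 1 library. All 42 counts of Trav6n-7 came from PBS 1, and 22 of the 25 counts of Trav7n-6 came from PBS 3. PBS 2 held 14 of the 23 counts of Trav13n-1, and PBS 3 held 17 of the 31 of Trav4n-3, with 13 of the rest in Akkermansia 2. These 4 are the Trav members with at least 50% of their counts in a single library, and 0 Traj members were so placed. Shares varied between libraries of a group by more than counting alone gives: the variance was 2.19 times the counting variance for Trav with Akkermansia and 4.01 times with PBS, and 2.63 and 2.60 times for Traj.

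Grouped into numbered families, Trav14 was the most used, with 19.9, 19.7 and 18.9% of Trav counts in Akkermansia 1 to 3 and 17.5, 17.3 and 17.1% in PBS 1 to 3. The groups did not overlap (exact permutation p = 0.1, adjusted over 18 families 0.9, n = 3). Trav9 held 14.0% on average, Trav7 13.7% and Trav6 8.18%, all with overlap. Trav4 was lower without overlap, at 4.67 ± 0.4% against 6.02 ± 1.02% (exact permutation p = 0.1, adjusted 0.9, n = 3), and the other 16 families overlapped.

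**Figure D4:**
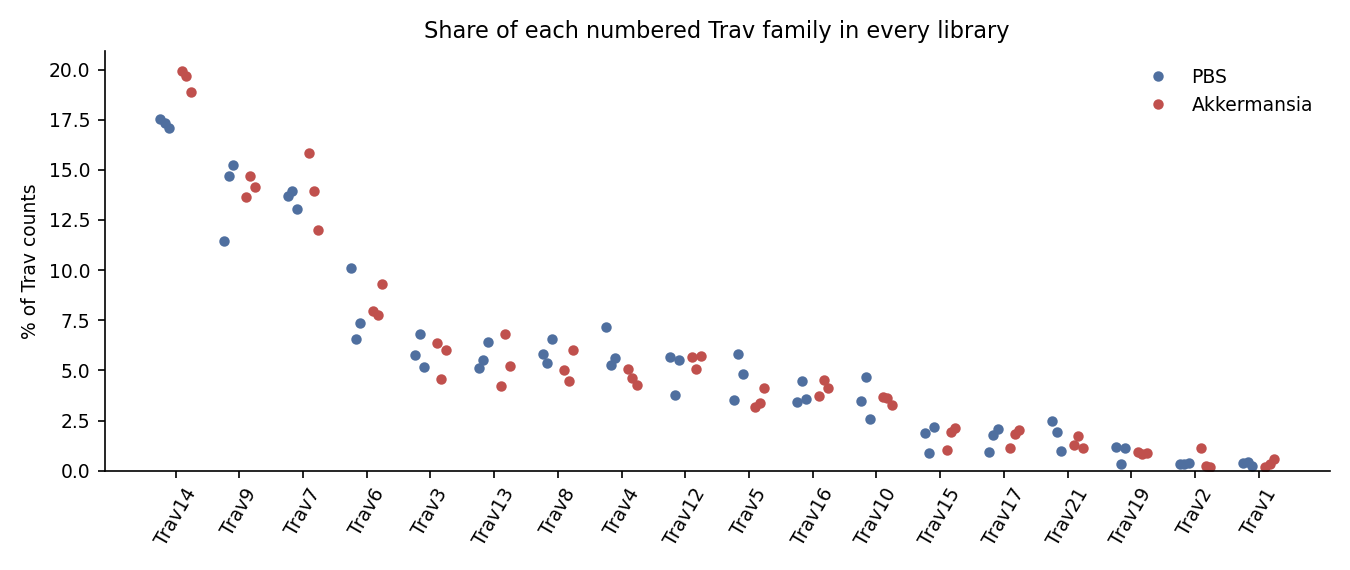
Share of each numbered Trav family in the Trav counts (vertical axis, %, from 0) in every library, PBS in blue and Akkermansia in red. Trav14 is the most used family, with 18.9 to 19.9% in the Akkermansia libraries and 17.1 to 17.5% in the PBS libraries, and 16 of the 18 families overlap.

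By copy, the d segments took 12.6, 12.6 and 14.8% of Trav counts in the Akkermansia libraries and 10.4, 10.8 and 10.96% with PBS, without overlap (exact permutation p = 0.1, adjusted over 4 shares 0.4, n = 3). The n segments took 12.4 ± 0.539% and 12.5 ± 2.52%, and d and n together 25.7 ± 1.26% and 23.3 ± 2.31% (exact permutation p = 0.2, n = 3). Segments with dv in the name, which the delta locus can also use, held 11.8 ± 0.698% and 11.8 ± 1.24%. Similar copies limit these values: 57 of the 70 Trav members have another Trav segment at least 95% identical in sequence, and those 57 hold 88.8% of the Trav counts. At 98% identity or more there were 29 such members with 39.2% of the counts. At 100% there were 5, with 2.10%. The sources used here do not say how reads that match several copies were assigned, so values of single Trav segments are uncertain.

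The variable segments of the invariant receptors were at low counts. Trav11 and Trav11d, the variable segments of invariant NKT cells, had 2, 1 and 1 counts together with Akkermansia and 1, 0 and 0 with PBS, below the floor of 3 counts, which is 0.149 to 0.192% of a library's Trav counts. No fold is given for them. Their partner Traj18 took 2.45 ± 0.234% of Traj counts in the Akkermansia libraries and 1.78 ± 0.401% with PBS, with overlap (exact permutation p = 0.2, n = 3). Trav1, used by mucosal-associated invariant T (MAIT) cells, had 3, 5 and 9 counts against 8, 7 and 4. Its partner Traj33 had 18, 28 and 44 counts against 26, 29 and 28, with a log2 fold change of 0.19 ± 0.38 (adjusted p = 0.788). Of 6 NKT and MAIT cell markers, 0 rose and Slamf1, a signalling receptor, fell by 0.61 (log2, adjusted p = 0.00675, edgeR). Of all genes tested, 7.32% rose and 8.28% fell. The summed level of the 6 markers was 641 to 807 CPM with Akkermansia and 678 to 1007 CPM with PBS.

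Among genes that assemble the receptor, Cd3e, a CD3 chain, rose by 0.24 ± 0.07 (log2, adjusted p = 0.0329) and Canx, a chaperone of the endoplasmic reticulum, by 0.31 (adjusted p = 0.0188), the 2 that passed of 8 tested in a list of 9. In a list of 9 CD3 chains and T cell surface genes, all tested, 3 rose and 1 fell. Besides Cd3e, Cd4 rose by 0.36 (adjusted p = 0.00428) and Cd5 by 0.33 (adjusted p = 0.0155). Cd28, a costimulatory receptor, fell by 0.87 (adjusted p = 0.00163). Of 12 genes of alpha locus recombination, 10 were tested, 2 rose and 1 fell. Beside the counts of these lists, 7.32% of all genes tested rose and 8.28% fell. Rag2, a recombinase subunit, had 0 counts in every library, and Rag1, its partner, had 0, 2 and 0 counts against 11, 0 and 2. Dntt, which adds bases at the joints, rose by 0.89 (adjusted p = 0.0343), Prkdc, a kinase of end joining, rose by 0.28 (adjusted p = 0.0304), and Hmgb2, a DNA-bending protein, fell by 0.56 (adjusted p = 0.000998). Ptcra, the surrogate alpha chain of thymocytes, had 2 counts in PBS 1 and 0 elsewhere.

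Of 14 factors that bind the alpha enhancer or shape the locus, all tested, 0 rose and Myb, a transcription factor, fell by 0.58 (adjusted p = 0.0408). Of 9 genes of nonsense-mediated decay, which degrades transcripts with early stop codons, Smg1 rose by 0.47 (adjusted p = 0.00858), Upf1 rose by 0.23 (adjusted p = 0.0401), Eif4a3 fell by 0.26 (adjusted p = 0.0205), and the other 6 did not pass. The p-values of these lists are from edgeR, adjusted over all genes tested, of which 7.32% rose and 8.28% fell.

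Markers of other cells also moved with treatment, where 7.32% of all genes tested rose and 8.28% fell. All 10 of 10 B cell markers rose, with a summed level of 404 to 546 CPM with Akkermansia and 194 to 218 CPM with PBS. Both CD8 T cell markers, Cd8a and Cd8b1, rose, with a sum of 61.3 to 93.4 CPM against 19.1 to 20.2 CPM, beside a Cd4 level of 851 to 909 CPM against 660 to 723 CPM. Of 6 markers of gamma-delta T cells, 5 were tested and 2 rose (Tcrg-C4 and Blk), with a sum of 42.5 to 54.4 against 26.5 to 29.2 CPM. Blk alone held 26.6 ± 4.71 against 12.1 ± 1.34 CPM of that sum (SD, n = 3). Its log2 fold change was 1.13, beside a median of 1.22 for the B cell markers. The receptor genes Trdc, Tcrg-C1 and Tcrg-C2 did not pass. Of 7 natural killer cell markers 3 rose (64.3 to 79.6 against 53.5 to 63.6 CPM), and of 7 myeloid markers 2 rose (321 to 342 against 216 to 255 CPM). Every gene of these 5 lists had counts in all 6 libraries except Sox13, a gamma-delta T cell factor, with 5, 32 and 5 counts against 1, 4 and 0. The part of these cells in the Traj result was not tested.

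Gene length and nuclear RNA were set beside the Traj values too. Of 70 other tested genes of up to 100 bases, receptor and immunoglobulin segments left out, 1 rose and 2 fell, and their median was -0.20 on the log2 scale. Of 8 immunoglobulin joining segments tested, 2 rose, with a median of 1.08. Of all genes tested, 7.32% rose and 8.28% fell, with a median of -0.01. Malat1, a long RNA kept in the nucleus, fell by 0.48 ± 0.08 (log2, adjusted p = 0.00257, edgeR), and Neat1, another nuclear RNA, had 0.07 (adjusted p = 0.703). The share of unspliced RNA in the libraries was not tested.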

How the data were processed

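The authors deposited raw counts per gene and FPKM values (adjusted to the length of the gene and the size of the library). Per the submitters' processing notes, GRCm39 was the build used. The sources used here do not give the aligner, the counting rule, the strand setting or the handling of reads that match several genes. Counts over segments at gene level are no clone or junction counts. Poly(A) selection was used, per the labels' protocols.

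Levels, tests and shares were computed from the deposited counts, and levels of different segments were compared on the deposited FPKM. Genes were kept by filterByExpr (minimum count 10, minimum total 15) in edgeR 4.0.16 (R 4.3.3), scaled by TMM and compared by the robust quasi-likelihood test over all 15138 genes, two-sided, with Benjamini-Hochberg adjustment and a threshold of 0.05. CPM uses the TMM factors. Values of 1 per library were compared by the exact two-sided permutation test, whose smallest p with 3 against 3 libraries is 0.10. Alternatives were DESeq2 1.42.0, voom and log2(FPKM + 1 or 0.1) in limma 3.58.1, RLE factors, other filters, other scalings, a replicate block, and leaving out each library. A usage share is the percent of a class's counts over its members. Floors cover counting error only. The script was tested on simulated counts. It recovered 44% of 50 changes of 1.5-fold, 80% of 50 of 2-fold, and 88% at 3-fold and at 4-fold. Of its 161 calls, 6.83% were false. The changed genes were drawn from all genes tested, so the recovery may not hold for segments with few counts.

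The members, lists and tests were chosen with earlier results of these data known. Genes named were Trac, every member past the threshold, the 8 Trav and 8 Traj with the highest mean FPKM, the invariant receptor segments, the extremes of log2 fold change, the members at the threshold of the rule, and up to 4 genes a list. Others (the library-private Trav segments, Trav and Traj without overlap, Malat1, Neat1) were chosen after their values were seen. Sequences and gene types are from GENCODE M21, which describes an older build, so no positions are given.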

Additional observations from a re-analysis of the deposited data

How the results depend on the processing

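The number of Traj segments that rose, 10, was 9 to 14 under DESeq2, voom, RLE factors, other filters, FPKM and per summed Trav count, 5 per CD3 transcript, 0 per summed Traj count, and 3 to 12 with 1 library left out. The number of Trav segments that fell, 0, was 2 with no filter (Trav6n-7 and Trav7n-6, each resting on 1 library) and 1 on log2(FPKM + 1) and on log2(FPKM + 0.1) (Trav8d-2). The summed Trav difference (log2) was -0.24 per CD3 transcript and 0.0057 per Trac count, the last chosen after seeing the data, and -0.14 to -0.03 with 1 library left out. Summed Traj stayed between 0.53 and 0.77 with 1 library left out. Differences in usage, Akkermansia minus PBS, that changed sign had not passed a test: the effective number of Trav segments, 0.736, was -0.406 with families pooled and -1.09 to 1.67 with 1 library left out, that of Traj segments, 0.262, was -0.62 to 0.916 with 1 library left out, and the Trav1 share, -0.0029 percentage points, was -0.104 to 0.0781. Fold changes (log2) that changed sign were of segments that did not pass: Trav14d-3-dv8 was at -0.0049 per CD3 transcript; Trav9-1 at -0.0061 with the replicate block, -0.15 per CD3 transcript, -0.011 by voom and -0.089 to 0.16 with 1 library left out; Trav14-1 at -0.10 per CD3 transcript and -0.054 to 0.14 with 1 library left out. With 1 library left out Trav14n-3 ranged from -0.017 to 0.29, Traj38 from -0.39 to 0.37 and Traj33 from -0.20 to 0.47. The causes were not tested.

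With the replicate number as a block, 11 Traj segments rose and 0 Trav segments passed. Libraries with the same number share that number and the CD4, CD5 or CD6 name in their descriptions. Their deviations correlated at 0.098, 0.089 and 0.037, and each library correlated best with its own number. That is a hint from the data and does not establish a pairing. Under a mean count of at least 10, the shares of Trav11 with Trav11d and of Trav1 gave no value. Depth limits single segments: 51 of 70 Trav and 42 of 50 Traj had enough counts to be tested. How far reads of near-identical Trav copies were kept apart cannot be seen from the counts alone.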
